A study of Mus musculus with 47 samples.

Results

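Kidneys of male CAST/EiJ mice were compared with kidneys of male C57BL/6J mice, both kept on the diet with 10% fat and fiber. The 7 libraries, 3 from CAST/EiJ and 4 from C57BL/6J, were chosen by their labels out of 47 in the series, and no measured value entered the choice. All 7 came from wild-type animals with no treatment, placed on this control diet at 6 weeks of age and sampled at 15 weeks. Polyadenylated RNA from frozen tissue was sequenced. The other groups used below, wild type, untreated and of the same ages, were of 4 libraries each, CAST/EiJ and C57BL/6J females on 10% fat, CAST/EiJ and C57BL/6J males on 44% fat, and NZO/HlLtJ males on 10% fat. The tissue label is metanephros, the definitive kidney, and markers of proximal tubule, thick ascending limb and podocytes were all present in every library. The labels do not say whether each library came from its own mouse, so p-values here describe only variation between libraries. For the gene tests, the spread was estimated from all 47 libraries of the series, not from these 7 alone. No question is stated for this pair of groups alone. The whole series sets several strains, both sexes and the 2 diets side by side as mouse models of type 2 diabetes, the diet of 44% fat being its high fat, high sugar arm.

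C57BL/6J is the common laboratory strain on which the mouse reference genome is built. CAST/EiJ is an inbred wild-derived strain of the subspecies Mus musculus castaneus, and it carries many more sequence differences from the reference than classical laboratory strains do. The proximal tubule takes back glucose, amino acids and phosphate from the filtrate and secretes organic anions and cations, and in mice many of its genes are set by androgens. When reads from a distant strain are assigned on a reference of another strain, a gene and its retrotransposed or duplicated copies can trade reads.

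Some of the widest gaps between the strains fell on genes with a near-identical copy elsewhere in the genome. The stretches below, of 60 bases each, are shown because the counts of each gene and its copy stood in opposite proportion in the 2 strains, or because the copy kept its level while the gene did not. They are coding sequence of the C57BL/6J reference (GENCODE M21, GRCm38) written 5′ to 3′ on the transcribed strand, and capitals mark bases that differ between gene and copy. The sequence of CAST/EiJ itself was not analysed here.
mt-Co2, chrM:7465-7524, plus strand: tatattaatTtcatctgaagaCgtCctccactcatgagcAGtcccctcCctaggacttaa
Gm13341, chr2:22587463-22587522, minus strand: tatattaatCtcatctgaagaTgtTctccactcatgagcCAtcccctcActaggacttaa
Rpl9, chr5:65389551-65389610, minus strand: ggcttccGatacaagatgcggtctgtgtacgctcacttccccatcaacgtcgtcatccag
Rpl9-ps6, chr19:32466234-32466293, minus strand: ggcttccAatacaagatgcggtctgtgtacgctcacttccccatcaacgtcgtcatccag
Cyp2a4, chr7:26307671-26307730, plus strand: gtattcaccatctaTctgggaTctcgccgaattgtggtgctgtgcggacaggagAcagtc
Cyp2a5, chr7:26835816-26835875, plus strand: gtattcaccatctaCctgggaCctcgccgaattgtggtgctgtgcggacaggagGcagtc

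Across the aligned coding sequence, mt-Co2 and the nuclear pseudogene Gm13341 differed at 16 of 669 bases. Rpl9 and Rpl9-ps6 differed at 1 of 576 bases, the substitution G8A counted from the 5′ end of the stretch shown. Cyp2a4 and Cyp2a5, neighbouring cytochrome P450 genes, differed at 23 of 1482 bases. Pgk1 and its retrotransposed copy Pgk1-rs7 had no difference in 1250 aligned bases, so no stretch is shown.

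The deposited table gave expected counts, with 36.4 M to 46.7 M (M, mega) per CAST/EiJ library and 34.4 M to 48.1 M per C57BL/6J library. Levels below are in CPM, counts scaled to a common library size with TMM factors, and changes are log2 values of CAST/EiJ over C57BL/6J, where 1 is a 2-fold difference. Mitochondrial genes took 13.3% to 14.1% of counts in CAST/EiJ and 13.1% to 13.8% in C57BL/6J. With Gm13341 counted among them, the shares were 13.846% to 14.634% in CAST/EiJ and 13.105% to 13.835% in C57BL/6J, without overlap. Other nuclear copies, such as Gm10925 of mt-Atp6, were not added, so this separation holds for that choice of copy only. Exact permutation tests (two-sided) of 5 composition measures gave p-values of 0.0571 or more, and 3 against 4 libraries cannot give a smaller one. The sample ID numbers in the labels fell into 3 runs, each of which held libraries of both strains and was a term in the model. No pair of replicate libraries agreed within sampling noise. The widest disagreement was between CAST/EiJ replicates 1 and 3, with a chi-square per degree of freedom of 43.9. The other pairs within each strain lay at 15.3 to 28.0.

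The strains differed at a large share of the genes measured. Of 18786 genes tested, 8725 (46.4%) passed an adjusted p of 0.05, with 4474 (23.8%) higher and 4251 (22.6%) lower in CAST/EiJ. At least 2-fold differences were found for 3187 genes (17%), 1385 (7.37%) higher and 1802 (9.59%) lower. At least 8-fold differences were found for 859 genes (4.57%) and at least 32-fold ones for 336 (1.79%). The libraries of the 2 strains did not overlap in CPM for 4636 genes higher (24.7%) and 4470 lower (23.8%) in CAST/EiJ. The median log2 change over all genes was 0.0098, and higher and lower calls were near equal in number. Of the 8725 called genes, 8516 (97.6%) differed in the same direction within each of the 3 ID runs, as did 65.5% of all genes tested. The calls were made on these same libraries, so this agreement follows in part from the calls and is not separate evidence.

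Highly expressed genes were called more often, and large differences sat at low levels. Among 528 genes with an average log2 CPM of 8 or more, 55.9% were called and 0.758% were called at 8-fold or more. Among 4805 genes below 0 on that scale, the shares were 32.5% and 11%, with a median standard error of 0.592 against 0.0801 in the top class. Called genes lay on every chromosome, from 40% of 15 genes on the mitochondrial chromosome to 50.5% of 658 genes on chromosome 13. The X chromosome had 41.1% called, with 89 genes higher and 144 lower. Protein-coding genes were called in 48.7% of 15429 cases and at 8-fold or more in 3.39%, whereas 21.7% of 609 pseudogenes were called at 8-fold or more.

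**Figure D1:**
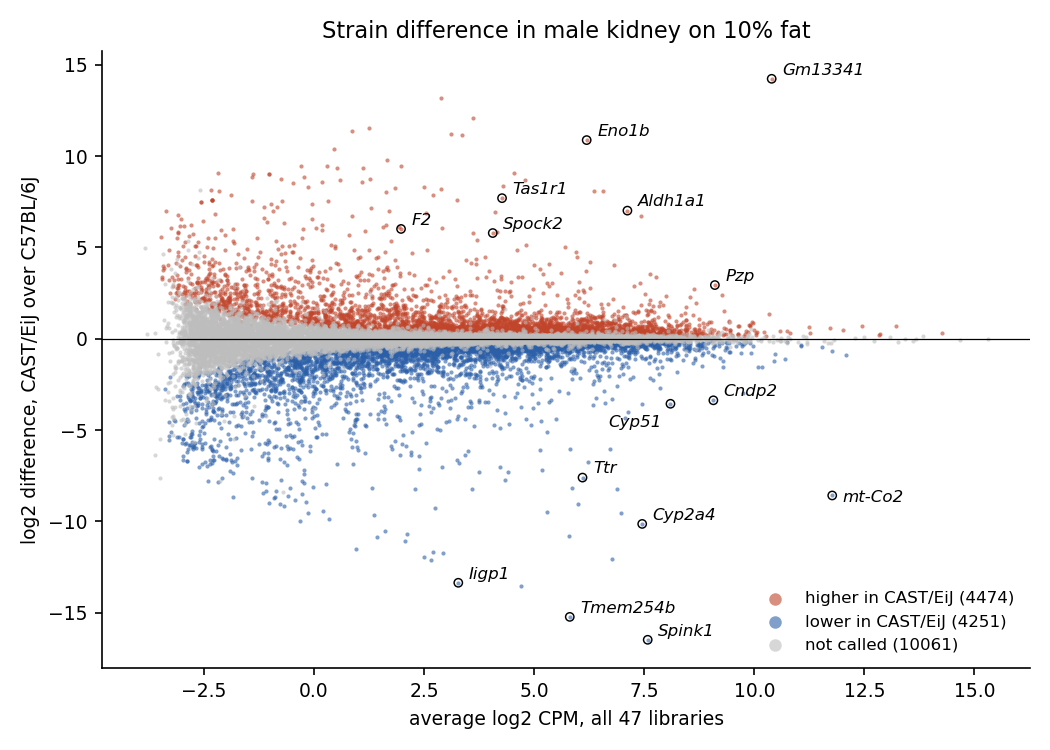
Log2 difference of CAST/EiJ over C57BL/6J males on 10% fat (vertical axis) against the average log2 CPM over all 47 libraries (horizontal axis) for the 18786 genes tested. Coloured points are the 4474 genes called higher and the 4251 called lower in CAST/EiJ, grey points were not called, and ringed points with labels are genes described in the text.

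Among genes whose mean count was 10 or more per library in both strains and whose average log2 CPM reached 1, those higher in CAST/EiJ were led by Aldh1a1 (chr19:20601961-20643462), an aldehyde dehydrogenase that makes retinoic acid. Aldh1a1 stood at 381, 557 and 531 CPM in the CAST/EiJ libraries, against 3.85, 3.45, 3.60 and 4.29 CPM in the C57BL/6J libraries, a log2 difference of 7.01 (SE 0.16, adjusted p 4.20e-30). Its neighbour Aldh1a7 (chr19:20692953-20727562) averaged 206 ± 54.3 CPM in CAST/EiJ and 6.21 ± 0.712 CPM in C57BL/6J (± SD, n = 3 and 4, here and below), with a log2 difference of 5.04 (SE 0.24, adjusted p 6.13e-19). The rule that picked these genes required groups that do not overlap, and for both every CAST/EiJ library was far above every C57BL/6J library.

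The coagulation factor prothrombin, F2, made mainly by liver, was at 22.6, 22.9 and 29.4 CPM in CAST/EiJ kidneys, against 0.275, 0.621, 0.400 and 0.226 CPM in C57BL/6J (log2 difference 6.01, SE 0.35, adjusted p 1.97e-17). Spock2, an extracellular matrix proteoglycan, averaged 99.6 ± 4.90 and 1.79 ± 0.218 CPM in CAST/EiJ and C57BL/6J (log2 difference 5.79, SE 0.15, adjusted p 9.88e-30). Aox1, aldehyde oxidase, averaged 53.1 ± 9.94 and 1.22 ± 0.255 CPM in CAST/EiJ and C57BL/6J (log2 difference 5.41, SE 0.19, adjusted p 5.90e-25). Also in this set were Pdilt, a protein disulfide isomerase relative known from testis (5.83, SE 0.26), Gad1, the enzyme that makes GABA (5.35, SE 0.36), and Abhd1, an alpha/beta hydrolase (4.83, SE 0.17). For Pdilt the third CAST/EiJ library was lower, at 122, 128 and 66.0 CPM, yet still far above the 1.59, 2.39, 1.55 and 1.5 CPM of C57BL/6J. Abhd1 shared 75.9% of its 31-base words with other genes, and Pgk1-rs7 and Rps12, the remaining 2 of the 10 highest by this rule, are taken up with their copies below.

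By the same rule, genes lower in CAST/EiJ were led by Cyp2a4 (chr7:26307169-26315088), a testosterone 15-alpha-hydroxylase. Cyp2a4 was at 0.252, 0.390 and 0.164 CPM in CAST/EiJ, against 263, 344, 318 and 289 CPM in C57BL/6J, a log2 difference of -10.14 (SE 0.27, adjusted p 3.12e-27). Transthyretin, Ttr (chr18:20665250-20674324), the thyroxine and retinol carrier of plasma, was at 0.71, 0.0300 and 0 CPM in CAST/EiJ, against 49.6, 54.3, 55.5 and 65.2 CPM in C57BL/6J (log2 difference -7.61, SE 0.56, adjusted p 1.16e-13). Slc6a15, a transporter of branched-chain amino acids and proline, was at 0.824, 0.660 and 1.01 CPM in CAST/EiJ, against 79.1, 38.5, 57.4 and 56.3 CPM in C57BL/6J (log2 difference -6.12, SE 0.45, adjusted p 1.41e-13). Each of these genes was near 0 in every CAST/EiJ library and well expressed in every C57BL/6J library.

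Habp2, a plasma serine protease that binds hyaluronan, averaged 1.99 ± 0.903 CPM in CAST/EiJ and 129 ± 13.1 CPM in C57BL/6J (log2 difference -6.04, SE 0.19, adjusted p 1.45e-25). Stra6l, a relative of the retinol transporter Stra6, averaged 0.786 ± 0.269 and 23.2 ± 4.57 CPM in CAST/EiJ and C57BL/6J (log2 difference -4.89, SE 0.29, adjusted p 1.61e-16). Coro2a, an actin-binding coronin, differed by -5.09 (SE 0.49) and Tcf24, a basic helix-loop-helix factor, by -4.80 (SE 0.19). A lipid kinase gene, Pik3c2g, is listed under 2 identifiers, of which the well expressed one differed by -4.75 (SE 0.19). Hsd3b4, a 3-beta-hydroxysteroid dehydrogenase (-6.01, SE 0.27), and mt-Co2 complete the 10 lowest by this rule, and both share nearly all of their sequence with other genes.

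**Figure D2:**
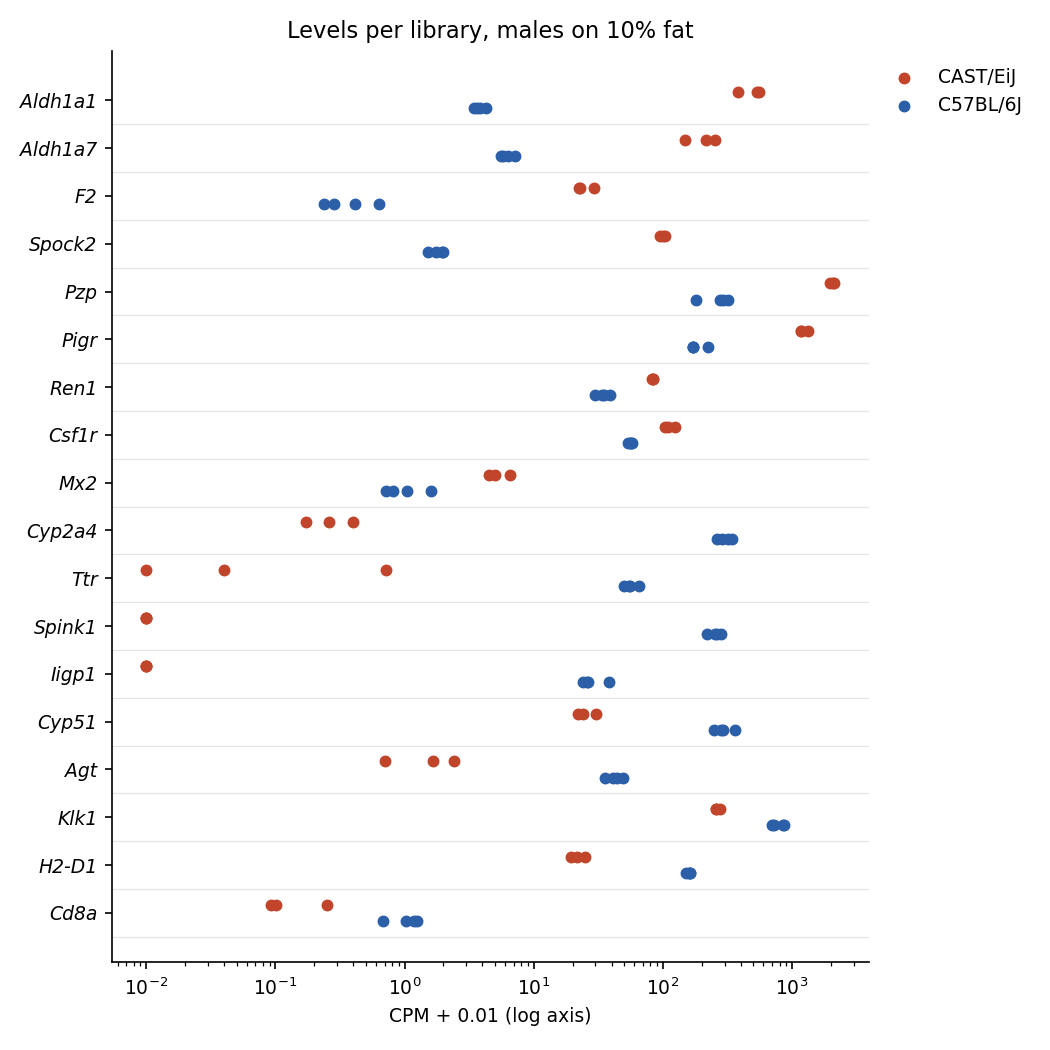
CPM of 18 named genes in each library on a log axis after adding 0.01 CPM, with CAST/EiJ males on 10% fat drawn above C57BL/6J males in each row. Each point is 1 library, and in all 18 genes the 3 CAST/EiJ libraries lie apart from the 4 C57BL/6J libraries. Many of these genes were picked by a rule that required this.

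Genes with fewer than 10 counts per library in 1 strain, some with wider gaps than those above, were detected in that strain barely or not at all. In all, 129 called genes had 0 counts in every CAST/EiJ library and 28 of them averaged over 1 CPM in C57BL/6J, while 55 had 0 counts in every C57BL/6J library and 16 of them averaged over 1 CPM in CAST/EiJ. A count of 0 allows up to 3 counts per library, or 0.0687 to 0.09 CPM in the CAST/EiJ libraries and 0.0666 to 0.0916 CPM in the C57BL/6J libraries, and this limit covers counting error only. Spink1 (chr18:43728069-43737237), a trypsin inhibitor, had 0 counts in all CAST/EiJ libraries and 253, 284, 220.5 and 264 CPM in C57BL/6J, at least 3181-fold lower in CAST/EiJ. Iigp1 (chr18:60376029-60392627), an interferon-induced GTPase, had 0 counts in CAST/EiJ and 26.3, 25.8, 24.3 and 38.4 CPM in C57BL/6J, at least 357-fold lower. Tmem254b (chr14:26203369-26207041) had 0 counts in CAST/EiJ and 118, 95.8, 112 and 102 CPM in C57BL/6J, but its 31-base words are all shared with its neighbours Tmem254a and Tmem254c.

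Nccrp1, related to F-box proteins that bind sugars, was at 0.0687, 0 and 0.0547 CPM in CAST/EiJ, against 32.2, 28.7, 41.5 and 33.7 CPM in C57BL/6J. Atp4a, the catalytic subunit of the gastric proton pump, was at 0.206, 0.150 and 0.219 CPM in CAST/EiJ, against 31.1, 31, 30.2 and 30.0 CPM in C57BL/6J. Both had no shared 31-base words. Erdr1, in the pseudoautosomal region at the end of the sex chromosomes and annotated on Y, was at 0.114, 0.150 and 0.0547 CPM in CAST/EiJ, against 28.5, 42.3, 30.1 and 29.3 CPM in C57BL/6J. In the other direction, Tas1r1, a subunit of the umami taste receptor, was at 74.2, 69.3 and 21.1 CPM in CAST/EiJ, against 0.550, 0.124, 0.311 and 0.0501 CPM in C57BL/6J (log2 difference 7.70, SE 0.45, adjusted p 1.93e-16). It varied more between CAST/EiJ libraries than the genes above, and its groups did not overlap, as the rule that picked it required. Serpina6, the plasma carrier of corticosteroids, was at 0.916, 0.390 and 1.07 CPM in CAST/EiJ, against 0 counts in all C57BL/6J males, at least 10.3-fold higher. H2-Ea-ps, the MHC class II E alpha gene that C57BL/6J is known not to express, was picked after its values were seen, and stood at 6.64, 7.98 and 5.77 CPM in CAST/EiJ, against 0 counts in C57BL/6J, at least 88.3-fold higher.

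Among the most abundant transcripts, the differences were smaller but involved large parts of the pool. Pzp, pregnancy zone protein, a broad protease inhibitor of the alpha-2-macroglobulin family, stood at 1956, 2116 and 2084 CPM in CAST/EiJ, against 293, 181, 279 and 319.8 CPM in C57BL/6J (log2 difference 2.94, SE 0.14, adjusted p 1.47e-19). Pigr, the receptor that carries IgA across epithelia, was at 1318, 1177 and 1183 CPM in CAST/EiJ, against 171, 223, 171 and 172 CPM in C57BL/6J (log2 difference 2.71, SE 0.22, adjusted p 9.18e-13). Acmsd, which diverts tryptophan breakdown away from NAD synthesis, averaged 644 ± 57.7 and 125 ± 4.68 CPM in CAST/EiJ and C57BL/6J (log2 difference 2.36, SE 0.14, adjusted p 5.76e-17), and Acsm1, a medium-chain acyl-CoA synthetase, averaged 611 ± 16.2 and 179.5 ± 21.8 CPM (log2 difference 1.76, SE 0.10, adjusted p 4.64e-19).

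Cyp51, the lanosterol demethylase of cholesterol synthesis, was at 30.4, 24 and 22.1 CPM in CAST/EiJ, against 364, 290.2, 284 and 250.4 CPM in C57BL/6J (log2 difference -3.56, SE 0.11, adjusted p 3.75e-27). Cndp2, a cytosolic dipeptidase, was at 129, 133 and 134 CPM in CAST/EiJ, against 1742, 1139, 1288 and 1355 CPM in C57BL/6J (log2 difference -3.37, SE 0.18, adjusted p 6.50e-18). Ugt3a2, a UDP-glycosyltransferase, averaged 203 ± 15 and 1572 ± 31.6 CPM in CAST/EiJ and C57BL/6J (log2 difference -2.95, SE 0.08, adjusted p 1.11e-28). Abcg2, an exporter of urate and drugs at the apical membrane, averaged 132 ± 6.97 and 458 ± 12.3 CPM (log2 difference -1.80, SE 0.06, adjusted p 7.29e-26). The groups lay apart for all 4 genes, as the rule that picked them required. Xist and Ugt1a2 met the same level threshold, which was set over all 47 libraries, with low levels in males. Ugt1a2, a glucuronosyltransferase, was at 3.41, 2.91 and 3.55 CPM in CAST/EiJ males, against 1.31, 1.29, 0.488 and 0.451 CPM in C57BL/6J males. In males Xist, the RNA that silences an X chromosome in female cells, was at 2.13, 2.22 and 2.43 CPM in CAST/EiJ and 0.702, 0.323, 0.511 and 0.251 CPM in C57BL/6J.

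Counts of list members are set against all genes tested, of which 23.8% rose and 22.6% fell. Most lists of nephron segment markers held members moving both ways. Of 13 proximal tubule markers, 7 rose, 1 fell and 5 were not called (median log2 difference 0.25, against 0.0098 over all genes). Slc3a1, a subunit of the cystine transporter, was at 1344, 1306 and 1270.3 CPM in CAST/EiJ, against 775, 808, 767 and 749 CPM in C57BL/6J (log2 difference 0.75, SE 0.05, adjusted p 2.31e-15). Slc5a12, a lactate transporter, rose by 0.89 (SE 0.16) and Slc22a6, the organic anion transporter OAT1, by 0.47 (SE 0.10). Slc34a1, the main phosphate transporter, went the other way, with 3230.2, 3389.7 and 2893 CPM in CAST/EiJ, against 4856, 4754, 5172 and 5138 CPM in C57BL/6J (log2 difference -0.65, SE 0.08, adjusted p 2.23e-09). Summed over the list, the levels of the 2 strains overlapped, at 17525 to 18852 CPM in CAST/EiJ and 18225 to 19265 CPM in C57BL/6J.

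Distal convoluted tubule markers formed the list of tubule segments with the most members lower, 6 of 9, against 22.6% of all genes, and none higher (median -0.36). In bulk tissue, fewer cells of a type and less RNA per cell cannot be told apart. Slc12a3, the thiazide-sensitive sodium chloride cotransporter, was at 406, 375 and 368 CPM in CAST/EiJ, against 599, 664, 623 and 647 CPM in C57BL/6J (log2 difference -0.72, SE 0.08, adjusted p 9.86e-10). Pvalb, the calcium-binding protein parvalbumin of the early segment, was at 0.595, 0.720 and 0.383 CPM in CAST/EiJ, against 8.73, 10.5, 9.26 and 9.90 CPM in C57BL/6J (log2 difference -4.09, SE 0.23, adjusted p 3.28e-18). Calb1, calbindin, and Slc8a1, the sodium-calcium exchanger, which move calcium in the late segment, fell by 1.12 and 1.11 on the log2 scale (SE 0.16 and 0.19). The regulator Wnk4, the magnesium channel gene Trpm6 and Cnnm2 were not called. The list summed to 1499.5 to 1634 CPM in CAST/EiJ and 2155 to 2227 CPM in C57BL/6J, with no overlap.

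Of 9 thick ascending limb markers 2 rose and 3 fell. Umod, uromodulin, and the claudin gene Cldn16 rose by 0.58 and 0.62 (SE 0.08 and 0.12), while Egf was at -0.32 (SE 0.09). Of 10 principal cell markers 1 rose and 4 fell, with the water channel genes on both sides. Aqp2, the vasopressin-regulated channel, was at 131, 118 and 111 CPM in CAST/EiJ, against 73.8, 55.9, 75.1 and 79.7 CPM in C57BL/6J (log2 difference 0.77, SE 0.23, adjusted p 0.00632), and Aqp4, of the basolateral membrane, at -0.93 (SE 0.17). Scnn1b, a subunit of the epithelial sodium channel, and Fxyd4, a regulator of the sodium pump, fell by 0.60 and 0.99 on the log2 scale (SE 0.08 and 0.15). Of 9 intercalated cell markers 2 fell, the bicarbonate transporter gene Slc4a9 (-1.04, SE 0.10) and the proton pump subunit gene Atp6v1b1 (-0.71, SE 0.07), and 7 were not called. Of 8 podocyte markers 1 rose, the phosphatase gene Ptpro (0.68, SE 0.08), and 3 fell, among them the scaffold gene Magi2 (-1.16, SE 0.12) and Synpo (-0.30, SE 0.07).

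Transporters of organic ions and amino acids held many differences. Of 24 Slc22 and Slco genes, 11 rose and 11 fell, against a background of 46.4% of genes called. Slc22a30 was at 16.2, 17 and 25.4 CPM in CAST/EiJ, against 487, 331, 411 and 394 CPM in C57BL/6J (log2 difference -4.36, SE 0.23, adjusted p 4.43e-18), and its neighbour and near copy Slc22a28 was at 936, 1038 and 1079 CPM in CAST/EiJ, against 328, 240.4, 274 and 268 CPM in C57BL/6J. The groups lay apart for both, in opposite directions. Slc22a19, an organic anion transporter gene, fell by 2.05 (SE 0.15), Slc22a22, a prostaglandin transporter gene, by 2.08 (SE 0.18) and Slc22a29 by 2.96 (SE 0.28) on the log2 scale. Summed with its near copy Slc22a27, which rose, Slc22a29 was not called (log2 difference of the sum -0.43, SE 0.25, adjusted p 0.150). Of 15 amino acid transporter genes, 9 rose and 1 fell (median 0.30). Besides Slc3a1, the related heavy chain gene Slc3a2 rose by 0.68 (SE 0.08). Of the proline transporter pair, Slc6a20a rose by 0.89 and Slc6a20b was at -0.53 (SE 0.12 and 0.06), and Slc6a20a shared 32.0% of its 31-base words with other genes. Slc6a20b shares words with Sacm1l, and their sum differed by -0.27 (SE 0.06, adjusted p 8.93e-05).

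In glucose handling 5 of 14 genes rose and 2 fell, a share called near the 46.4% of all genes. The apical glucose transporters rose, Slc5a2 (SGLT2) by 0.34 and Slc5a1 (SGLT1) by 0.48 (SE 0.08 and 0.11), while the basolateral transporter gene Slc2a2 (GLUT2) was at 175, 159 and 112 CPM in CAST/EiJ, against 206, 246, 217 and 233 CPM in C57BL/6J (log2 difference -0.61, SE 0.13, adjusted p 1.32e-04). Pcx, pyruvate carboxylase, fell by 0.45 on the log2 scale (SE 0.10). Of 25 genes of fatty acid oxidation 4 rose and 7 fell. Hadhb, of the mitochondrial trifunctional protein, rose by 0.62 (SE 0.06), and Eci2, Acadl and Plin2, the last a lipid droplet coat gene, were at -0.77, -0.53 and -0.84 (SE 0.09, 0.07 and 0.13). Of 17 genes of fatty acid and triglyceride synthesis 4 rose, among them Elovl5, Fads1 and Elovl6, which lengthen or desaturate fatty acids (1.15, 0.88 and 0.59, SE 0.07, 0.08 and 0.10), and 2 fell, among them the acyltransferase gene Mogat2 (-3.79, SE 0.34).

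Cholesterol synthesis and uptake genes were mostly lower in CAST/EiJ. Of 19, 11 fell and 3 rose, against 22.6% and 23.8% of all genes, and the median was -0.35. Beyond Cyp51, Dhcr7, the last reductase of the pathway, was at 4.05, 3.84 and 2.46 CPM in CAST/EiJ, against 19.9, 15.5, 17.5 and 17.9 CPM in C57BL/6J (log2 difference -2.38, SE 0.14, adjusted p 5.48e-18). Sc5d, a sterol desaturase, was at 16, 16.4 and 15.5 CPM in CAST/EiJ, against 39.3, 32.4, 37.2 and 36.1 CPM in C57BL/6J (log2 difference -1.19, SE 0.10, adjusted p 2.42e-13). Nsdhl, a dehydrogenase that acts between Cyp51 and Sc5d, rose, with 127, 114 and 124 CPM in CAST/EiJ, against 59.0, 56.6, 64.5 and 48.8 CPM in C57BL/6J (log2 difference 1.09, SE 0.08, adjusted p 7.45e-16). Srebf2, the transcription factor that drives the pathway, was named after its values were seen and fell by 0.35 (SE 0.08).

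The genes of drug and steroid metabolism went in both directions within each family. Of 17 Cyp2 and steroid hydroxylase genes, 3 rose and 6 fell, all 9 by more than 2-fold. Cyp2j5, an arachidonic acid epoxygenase abundant in kidney, was at 599, 611 and 615 CPM in CAST/EiJ, against 1782, 1779, 1830.3 and 1698 CPM in C57BL/6J (log2 difference -1.55, SE 0.09, adjusted p 9.04e-19). Cyp2d12 was at 686, 610.1 and 533 CPM in CAST/EiJ, against 43.3, 63.6, 58.2 and 46.0 CPM in C57BL/6J (log2 difference 3.52, SE 0.29, adjusted p 1.78e-12), and its relative Cyp2d26 went the other way (log2 difference -2.23, SE 0.17, adjusted p 1.97e-13). Of 7 Cyp4a and Cyp4b1 genes, which hydroxylate fatty acids, 3 rose and 3 fell. Cyp4a12a, an androgen-dependent arachidonic acid hydroxylase, was at 418, 565 and 624 CPM in CAST/EiJ, against 279, 76.7, 189 and 229.7 CPM in C57BL/6J (log2 difference 1.51, SE 0.32, adjusted p 2.14e-04), and its counts cannot be separated with certainty from those of Cyp4a12b (1.77, SE 0.28). Their sum differed by 1.53 (SE 0.32, adjusted p 1.48e-04). In a fit of the 7 libraries alone neither was called (adjusted p 0.0749 and 0.0577). Cyp4b1 was at -1.24 (SE 0.27). Cyp4a32 was at 2.14 (SE 0.40), but its sum with the near copy Cyp4a10 turned the direction and was not called (log2 difference of the sum -0.66, SE 0.28, adjusted p 0.0579).

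Of 15 UDP-glucuronosyltransferase genes tested, 6 rose and 3 fell, among them Ugt2b38 at -1.08 and Ugt1a6a at 0.94 (SE 0.15 and 0.12). Ugt1a genes share their last exons, and Ugt1a10 (4.11, SE 0.32) shared 77.9% of its 31-base words with other genes. Of 12 carboxylesterase genes tested, 1 rose, Ces2b with 178, 211 and 189 CPM in CAST/EiJ, against 20.7, 12.4, 12.3 and 12.9 CPM in C57BL/6J (log2 difference 3.73, SE 0.34, adjusted p 3.51e-11), and 4 fell. Ces2c was at 24.6, 27.1 and 24 CPM in CAST/EiJ, against 446, 372, 384 and 399.6 CPM in C57BL/6J (log2 difference -3.99, SE 0.22, adjusted p 1.59e-17), and summed with its near copy Ces2d-ps it still differed by -3.66 (SE 0.21, adjusted p 1.37e-16). Ces1e and Ces1g fell by 2.13 and 4.01 on the log2 scale (SE 0.14 and 0.62). Of 29 glutathione and NRF2 genes tested, 13 rose and 6 fell. The transferases Gstt3 and Gstm7 rose by 1.47 and 2.28 (SE 0.08 and 0.14), and Gpx6 and Gstt1 were at -2.46 and -1.40 (SE 0.16 and 0.11). The pair Gsta1 and Gsta2 moved in opposite directions (4.10 and -3.57), and with Gm10639 their sum differed by -3.09 (SE 0.33, adjusted p 1.52e-09).

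The renin-angiotensin genes held 4 members higher and 4 lower of 10 tested, against 23.8% and 22.6% of all genes. Agt, the angiotensin precursor, was at 2.40, 0.690 and 1.64 CPM in CAST/EiJ, against 35.3, 48.8, 40.9 and 43.8 CPM in C57BL/6J (log2 difference -4.69, SE 0.26, adjusted p 2.51e-17). Ren1, renin, which cleaves it, was at 83.1, 83.8 and 81.7 CPM in CAST/EiJ, against 29.9, 39.2, 35.2 and 34 CPM in C57BL/6J (log2 difference 1.26, SE 0.13, adjusted p 1.28e-10). The peptidases downstream were lower, Enpep (aminopeptidase A) by 0.94 and Mme (neprilysin) by 1.13 on the log2 scale (SE 0.07 and 0.12). Ace, angiotensin-converting enzyme, was at -0.78 (SE 0.11) and the receptor gene Agtr1a at 0.29 (SE 0.07), both named after their values were seen. Of 12 kallikrein genes tested 5 fell and 1 rose. Klk1, tissue kallikrein, which releases kinins, was at 259, 277 and 259 CPM in CAST/EiJ, against 695, 860.2, 848 and 726 CPM in C57BL/6J (log2 difference -1.56, SE 0.10, adjusted p 2.38e-16), and the other members were below 5 CPM in every library. Among these, Klkb1, plasma kallikrein, rose by 0.61 (SE 0.19, but adjusted p 0.137 without CAST/EiJ replicate 3 and 0.0949 in a fit of the 7 libraries alone), Klk1b5 fell by 1.32 (SE 0.31) and Klk1b9 had 2 counts over the CAST/EiJ libraries, a level 16.6-fold lower with a 95% counting interval of 4.60-fold to 137-fold.

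Genes on the list of antigen presentation were lower in CAST/EiJ almost throughout. The class II gene H2-Ea-ps, given above as higher in CAST/EiJ, went the other way and is outside this list. Of 26 MHC and antigen presentation genes tested, 22 fell (18 by at least 2-fold), none rose and 4 were not called, against 22.6% of all genes lower, and the median was -1.28. The list summed to 391 to 466 CPM in CAST/EiJ and 1075 to 1249 CPM in C57BL/6J. H2-D1, a classical class I gene, was at 21.6, 25 and 19.4 CPM in CAST/EiJ, against 149.8, 163, 159 and 163 CPM in C57BL/6J (log2 difference -2.86, SE 0.14, adjusted p 1.53e-19). Of the nonclassical genes, H2-T22 was at 7.78, 6.84 and 5.49 CPM in CAST/EiJ, against 77.2, 76.2, 69.4 and 72.0 CPM in C57BL/6J (log2 difference -3.47, SE 0.12, adjusted p 1.85e-25), and H2-Q7 and H2-Q6 were at -4.22 and -4.40 (SE 0.26 and 0.28). The groups lay far apart for each. H2-Q6 was linked by shared words to 6 genes that are not class I genes, and that sum differed by -0.19 (SE 0.05, adjusted p 0.00105). Class I genes vary greatly between strains and resemble each other, and H2-D1 and H2-T22 shared 26.9% and 67.3% of their 31-base words with other genes. Other genes of the list also fell, among them the peptide transporter Tap1 (-1.24, SE 0.23), the transactivator Nlrc5 (-2.29, SE 0.36) and B2m (-0.52, SE 0.15), all 3 given after their values were seen. Of 11 members with whole counts in all 7 libraries, 10 fell.

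Interferon response genes were lower to a similar extent. Of 32 entries tested (Gbp6 is listed under 2 identifiers), 26 fell, 19 of them by at least 2-fold, 2 rose and 4 were not called (median -1.24), against 22.6% of all genes lower and 9.59% lower by at least 2-fold. The list summed to 168 to 208 CPM in CAST/EiJ and 357 to 474 CPM in C57BL/6J. Ifi44 was at 1.08, 1.32 and 1.37 CPM in CAST/EiJ, against 14.0, 17.9, 14.9 and 19.6 CPM in C57BL/6J (log2 difference -3.76, SE 0.20, adjusted p 1.41e-19), and Ifit3, which binds viral RNA, at 4.76, 4.56 and 4.26 CPM in CAST/EiJ, against 16.3, 23.8, 17.7 and 21 CPM in C57BL/6J (log2 difference -2.13, SE 0.16, adjusted p 2.08e-14). Irf7, the transcription factor that amplifies interferon production, fell by 2.58 on the log2 scale (SE 0.25). The 2 that rose, named after their values were seen, were Mx1 and Mx2, antiviral GTPases known to be defective in most laboratory strains. Mx2 was at 4.99, 6.54 and 4.51 CPM in CAST/EiJ, against 1.04, 1.59, 0.799 and 0.702 CPM in C57BL/6J (log2 difference 2.33, SE 0.26, adjusted p 8.29e-10), and Mx1, at about 1 CPM, rose by 0.97 (SE 0.30), a call lost without C57BL/6J replicate 1 (adjusted p 0.0516).

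Markers of T and NK cells were lower as well, 8 of 9, each by at least 2-fold, against 9.59% of all genes, and none rose (median -2.91). All were faint. The list summed to 1.79 to 2.79 CPM in CAST/EiJ and 4.72 to 6.02 CPM in C57BL/6J, with no overlap. Cd8a, the coreceptor of cytotoxic T cells, was at 0.0916, 0.240 and 0.0820 CPM in CAST/EiJ, against 0.672, 1.17, 1.02 and 1.23 CPM in C57BL/6J (log2 difference -2.91, SE 0.48, adjusted p 2.46e-06). Il2rb, a cytokine receptor of T and NK cells, was at 0.229, 0.390 and 0.164 CPM in CAST/EiJ, against 1.31, 0.894, 1.44 and 1.43 CPM in C57BL/6J (log2 difference -2.26, SE 0.52, adjusted p 4.06e-04). Nkg7, of cytotoxic granules, was at 0, 0.0900 and 0.0273 CPM in CAST/EiJ, against 0.427, 0.273, 0.333 and 0.301 CPM in C57BL/6J. Cd3g, a chain of the T cell receptor complex, had 2 counts over the CAST/EiJ libraries, a level 19.8-fold lower with a 95% counting interval of 5.49-fold to 164-fold. The constant region gene Trac, the member not called, was at 1.14, 1.92 and 1.31 CPM in CAST/EiJ, against 0.672, 0.497, 1.15 and 1.05 CPM in C57BL/6J.

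Macrophage markers were split, with 2 of 10 higher and 4 lower. Csf1r, the receptor for the growth factor CSF1, was at 123, 110.3 and 104 CPM in CAST/EiJ, against 56.2, 53.4, 57.7 and 55.9 CPM in C57BL/6J (log2 difference 1.02, SE 0.10, adjusted p 7.70e-12), whereas Adgre1, the F4/80 antigen, was at 1.67, 1.41 and 1.94 CPM in CAST/EiJ, against 6.01, 6.43, 4.91 and 6.32 CPM in C57BL/6J (log2 difference -1.83, SE 0.31, adjusted p 6.98e-06). C1qa and C1qb, complement subunits made by macrophages, fell by 0.67 and 0.85 (SE 0.22 and 0.21). The call for C1qa was lost without CAST/EiJ replicate 3 (adjusted p 0.0627). The list summed to 154 to 176 CPM in CAST/EiJ and 114 to 121 CPM in C57BL/6J. Csf1r was the largest part of this sum in CAST/EiJ, whereas the median log2 difference of the list was -0.24. None of 8 B and plasma cell markers was called. The part of these cell markers in the MHC and interferon differences was not tested.

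Of 20 complement genes, 11 fell and 6 rose. Cfi, the factor that cleaves C3b, was at 0.252, 0.150 and 0.0820 CPM in CAST/EiJ, against 4.95, 7.35, 4.46 and 4.86 CPM in C57BL/6J (log2 difference -5.01, SE 0.35, adjusted p 2.00e-15), and the cell surface protectors Cd55 and Cd59a were at -2.22 and -1.22 (SE 0.17 and 0.10). The near copies C4a and C4b moved in opposite directions, C4a by 2.38 and C4b, given after its values were seen, by -2.47 (SE 0.24 and 0.28), and their sum by -0.88 (SE 0.21, adjusted p 6.82e-04). Of 15 genes of tubular injury and repair 5 fell and 2 rose. Krt8, a keratin, and Clu, clusterin, fell by 1.79 and 2.10 on the log2 scale (SE 0.13 and 0.25), Spp1, osteopontin, rose by 0.75 (SE 0.14) and Fgb, a fibrinogen chain, was below 3 CPM in all libraries. The injury markers Havcr1 and Lcn2 were not called, at 0.49 (SE 0.51, adjusted p 0.456) and -0.62 (SE 0.73, adjusted p 0.512), and are given after their values were seen.

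**Figure D3:**
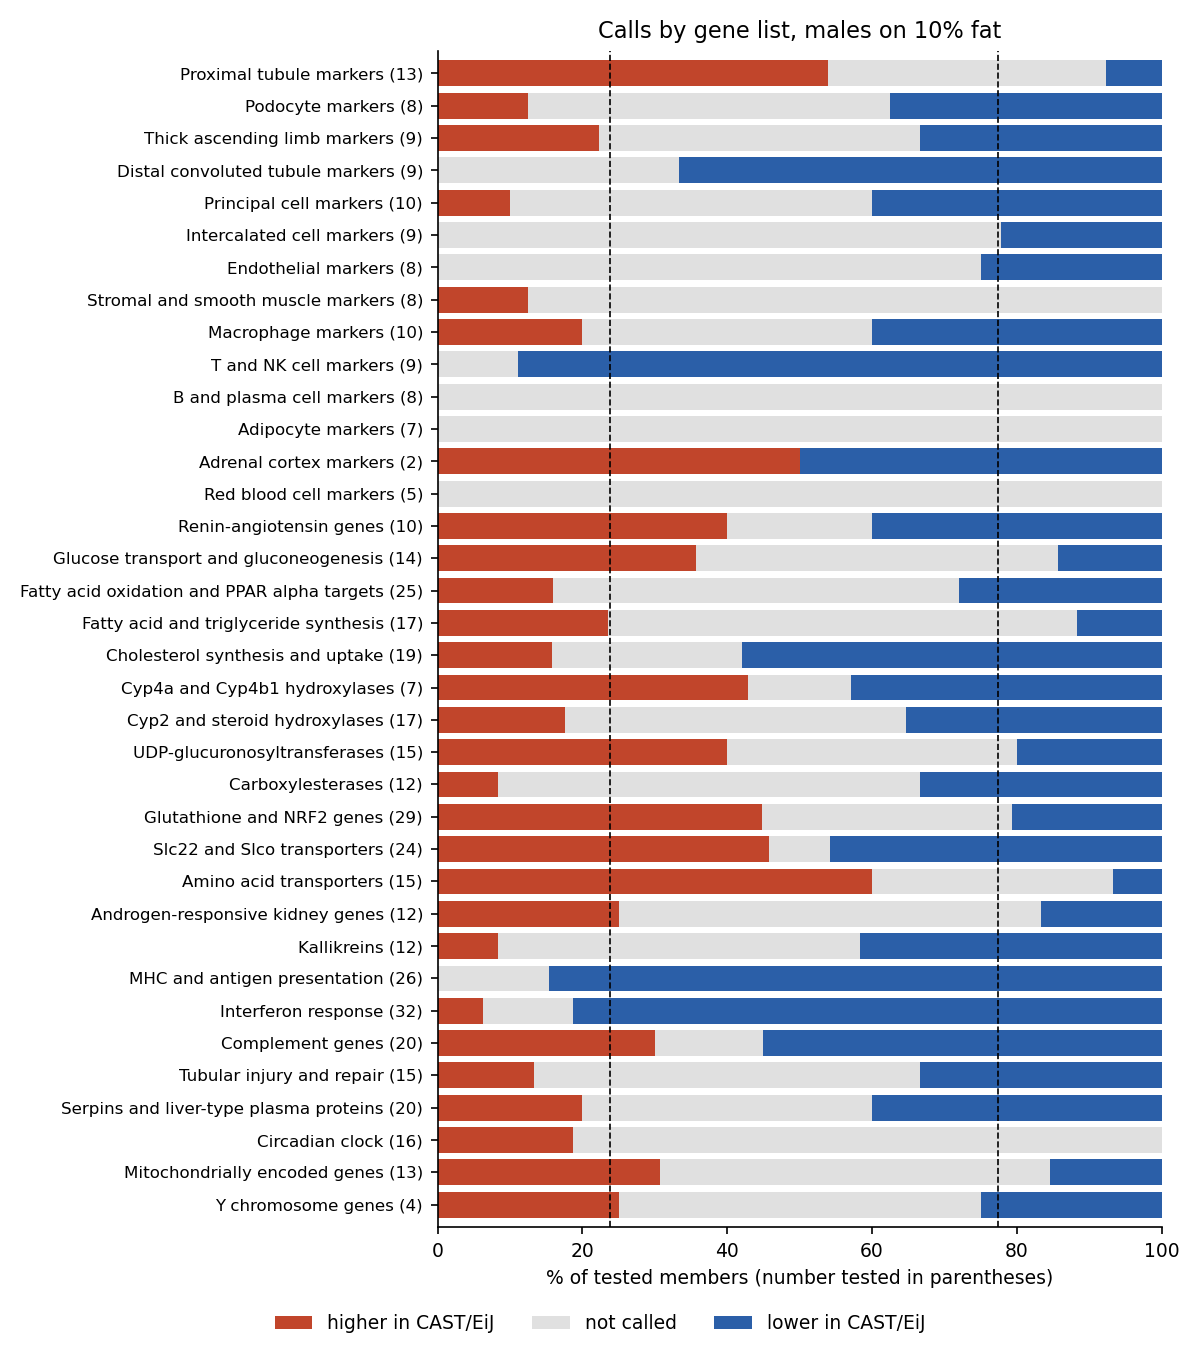
Share of tested members called higher, called lower and not called in CAST/EiJ against C57BL/6J males on 10% fat for 36 gene lists, with the number tested in parentheses beside each list's name. Dashed lines mark the 23.8% of all genes called higher and, from the right, the 22.6% called lower.

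Of 20 serpins and plasma proteins of liver type, 8 fell and 4 rose. Serpina1d, an alpha-1-antitrypsin gene, was at 5.52, 4.59 and 5.57 CPM in CAST/EiJ, against 126, 110.1, 125 and 102 CPM in C57BL/6J (log2 difference -4.52, SE 0.28, adjusted p 1.15e-15), and the sum of its family of 6 near copies differed by -3.08 (SE 0.25, adjusted p 1.67e-12). Within that family Serpina1a, taken by itself, fell by 3.74 (SE 0.35) on the log2 scale, Serpina1b was also lower and Serpina1e was higher. Outside the family Serpina1f fell by 1.08 (SE 0.10) on the log2 scale. Of 8 endothelial markers 2 fell, Cdh5 (-0.49, SE 0.10) and Emcn (-0.32, SE 0.08). Of 8 stromal markers 1 rose, Dcn (0.72, SE 0.21). None of 7 adipocyte and none of 5 red blood cell markers was called, and of 7 adrenal cortex markers 2 were expressed enough to be tested, both below 3 CPM, of which the steroid dehydrogenase gene Hsd3b1 rose by 5.34 (SE 0.58) and Star fell by 1.61 (SE 0.18). Of 16 circadian clock genes 3 rose and none fell, and Ciart was at 10.4, 4.11 and 3.61 CPM in CAST/EiJ, against 2.87, 1.19, 1.73 and 1.60 CPM in C57BL/6J (log2 difference 1.79, SE 0.48, adjusted p 0.00231). Hlf and Nr1d1 rose by 0.56 and 0.63 (SE 0.15 and 0.20). All 3 calls were lost without CAST/EiJ replicate 1, which left log2 differences of 0.93, 0.40 and 0.50 (adjusted p 0.141, 0.0567 and 0.0716). The hour of collection is not given in the sources used here. Of 12 androgen-responsive kidney genes 3 rose and 2 fell. Srd5a2, the steroid 5-alpha-reductase gene, was at 1.08, 1.29 and 1.01 CPM in CAST/EiJ, against 16.9, 3.73, 9.92 and 12.7 CPM in C57BL/6J (log2 difference -3.21, SE 0.51, adjusted p 2.46e-06). Odc1, of polyamine synthesis, named after its values were seen, was at 2468, 3369 and 3639 CPM in CAST/EiJ, against 2345, 1266, 1863 and 1534 CPM in C57BL/6J (log2 difference 0.86, SE 0.29, adjusted p 0.0136). Among the C57BL/6J males, replicate 2 had the lowest level of Srd5a2, Odc1 and Cyp4a12a. The call for Odc1 was lost without CAST/EiJ replicate 2 or 3 (adjusted p 0.0562 and 0.0766), without C57BL/6J replicate 2 (0.0567) and in a fit of the 7 libraries alone (0.0628). Among 4 Y-linked genes tested, Kdm5d and Ddx3y were called, at -0.37 and 0.35 (SE 0.12 and 0.13), and all 7 libraries expressed them. Without CAST/EiJ replicate 3 neither was called (adjusted p 0.0505 for Kdm5d and 0.471 for Ddx3y). Kdm5d was also not called without CAST/EiJ replicate 2 (0.0573), nor Ddx3y without C57BL/6J replicate 2, 3 or 4 (0.0792, 0.0683 and 0.0709).

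Of 13 mitochondrially encoded genes 4 rose and 2 fell, and mt-Co2, the gene of cytochrome oxidase subunit 2, showed the widest gap. Its level was 15.5, 13.2 and 16.5 CPM in CAST/EiJ, against 5689, 5749, 5734 and 5705 CPM in C57BL/6J (log2 difference -8.58, SE 0.22, adjusted p 4.31e-29). Gm13341, the nuclear copy on chromosome 2 shown above, was at 6013, 5647 and 5694 CPM in CAST/EiJ, against 0.183, 0.596, 0.178 and 0.226 CPM in C57BL/6J. Gene and copy thus changed places, and their sum was 5799.7 ± 199.7 CPM in CAST/EiJ and 5719 ± 27.3 CPM in C57BL/6J. A second copy, Gm28661 on chromosome 1, which holds 99.5% of the 31-base words of mt-Co2, was not called (log2 difference 0.08, SE 0.10, adjusted p 0.538), and the sum of all 3 differed by 0.05 (SE 0.08, adjusted p 0.642). The mitochondrial genes mt-Nd2 and mt-Cytb rose by 0.70 and 0.30 (SE 0.10 and 0.07). mt-Atp6 alone was at 0.70 (SE 0.11), but summed with its nuclear copy Gm10925 it was not called (log2 difference of the sum 0.09, SE 0.08, adjusted p 0.368).

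The same exchange was seen at ribosomal protein genes. Rpl9, a protein of the large ribosomal subunit, was at 179, 175 and 182 CPM in CAST/EiJ, against 7.60, 8.70, 9.88 and 5.84 CPM in C57BL/6J (log2 difference 4.48, SE 0.14, adjusted p 1.54e-26), and Rpl9-ps6, whose aligned coding sequence differs by the G8A base above, was at 0, 0 and 0.109 CPM in CAST/EiJ, against 160.4, 167, 147 and 164 CPM in C57BL/6J. Their sum was 179 ± 3.80 CPM in CAST/EiJ and 168 ± 7.58 CPM in C57BL/6J. Rpl27 and Rpl27-ps3 summed to 101 ± 1.65 CPM in CAST/EiJ and 94.2 ± 7.30 CPM in C57BL/6J, although Rpl27 alone differed by 3.56. Further pairs that changed places, chosen after their values were seen, were Atp5g2, an ATP synthase subunit gene, with Gm10175, whose sum was 90.2 ± 3.03 CPM in CAST/EiJ and 87.6 ± 4.38 CPM in C57BL/6J, and Apoo, a mitochondrial protein gene, with Apoo-ps, whose sum was 60.9 ± 3.20 CPM in CAST/EiJ and 62.2 ± 2.27 CPM in C57BL/6J. Rps12 alone differed by 5.11 and with Rps12-ps3 summed to 83.8 ± 1.24 CPM in CAST/EiJ and 62.1 ± 6.15 CPM in C57BL/6J. The sum of its family, which also held Nphs1 and RP23-181P23.2, was called (log2 difference of the sum 0.36, SE 0.07, adjusted p 1.16e-05). Pgk1-rs7 was at 267 ± 10.3 and 2.5 ± 0.723 CPM in CAST/EiJ and C57BL/6J, while Pgk1, phosphoglycerate kinase, was at 332 ± 11 and 487 ± 19.1 CPM, and the sum was 599 ± 12.1 CPM in CAST/EiJ and 489.6 ± 18.9 CPM in C57BL/6J. The sum of Pgk1 and Pgk1-rs7 was called (log2 difference of the sum 0.29, SE 0.07, adjusted p 4.64e-04). Tpm3-rs7 alone differed by 8.38, and with the tropomyosin gene Tpm3 the sum was 98.7 ± 3.27 CPM in CAST/EiJ and 111 ± 4.13 CPM in C57BL/6J. That sum was also called (log2 difference of the sum -0.18, SE 0.06, adjusted p 0.0113). Eno1b alone differed by 10.88, and with Eno1, enolase, and Gm4735 the sum still differed by 0.61 (SE 0.09, adjusted p 4.31e-07).

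**Figure D4:**
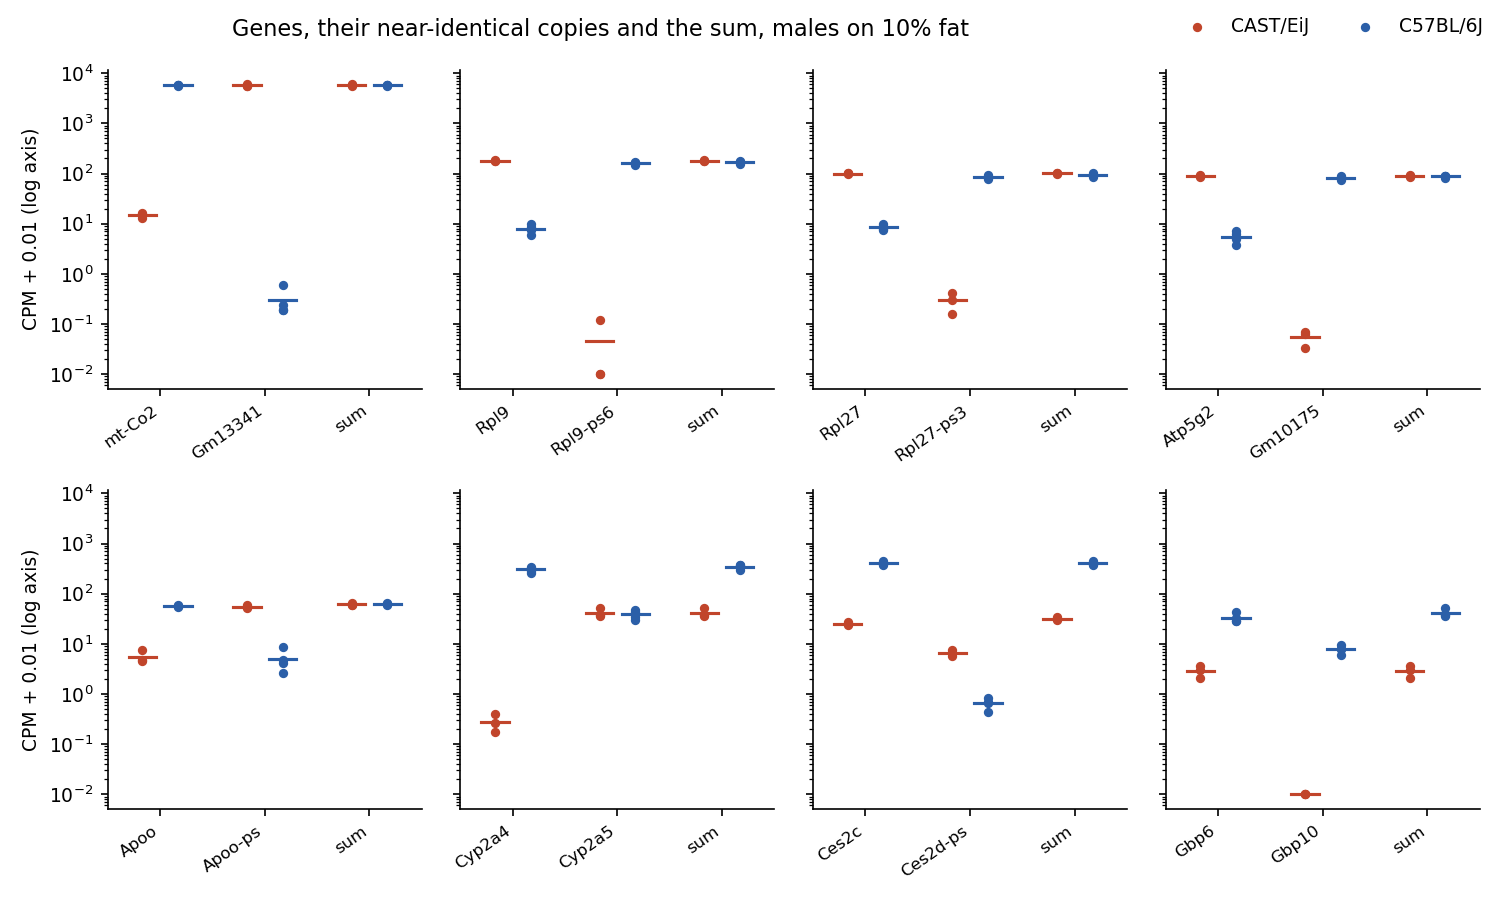
Mean CPM of a gene, of its near-identical copy and of their sum on a log axis after adding 0.01 CPM, CAST/EiJ males left of C57BL/6J males on 10% fat, for 8 pairs. Points are the libraries and bars their means. In the first 5 pairs gene and copy change places while the sums lie close together, and in the last 3 the sums stay apart.

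In other families the sum also differed. For Cyp2a4 the copy Cyp2a5 was at 51.7, 35.2 and 36.7 CPM in CAST/EiJ and 29.2, 35, 47.3 and 44.1 CPM in C57BL/6J, overlapping, so the sum stayed lower, at 41.5 ± 9.13 CPM in CAST/EiJ and 342 ± 38.7 CPM in C57BL/6J (log2 difference of the sum -3.03, SE 0.30, adjusted p 2.79e-10). Slc22a30 and Slc22a28 summed to 1037 ± 77.8 CPM in CAST/EiJ and 683 ± 101 CPM in C57BL/6J, higher in CAST/EiJ where Slc22a30 alone was lower (log2 difference of the sum 0.59, SE 0.18, adjusted p 0.00620). Hsd3b4 with Gm4450 and Gm10681 summed to a difference of 0.08 (SE 0.18, adjusted p 0.742), which was not called, and Tmem254b with its 2 neighbours to -1.42 (SE 0.09, adjusted p 9.12e-17). Pairs of immunity genes kept their gap when summed, Gbp6 with Gbp10 at -3.84 (SE 0.39, adjusted p 3.54e-10) and H2-Q7 with H2-Q5 at -4.21 (SE 0.25, adjusted p 2.84e-17).

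Over all genes, those with much shared sequence were called about as often as those with none, but more often at a large size. Words shared between overlapping genes were counted too, so a high share does not by itself mark a near copy. The share called was 46% of 5222 genes with no shared 31-base word and 47.3% of 1244 genes with more than 50% shared. The share called at 8-fold or more was 4.54% and 18.1% in these classes, and at 32-fold or more 1.49% and 10.7%. When the counts of 1039 genes in 387 families linked by shared words were summed, 224 families were called, 76 of them at 2-fold or more. Of 149 families with a member called at 8-fold or more, the sum reached 8-fold in 26 and 2-fold in 47, and was not called in 52. Links were chained, so some families joined unlike genes, such as Arhgef12 and Sp140 through Gm2427, and the largest held 49 genes. In such a family an abundant member can mask the difference of another, so a sum not called does not by itself show an exchange between copies. Expected counts that are not whole come from reads that can be assigned to more than 1 feature. Dcbld2, a membrane protein gene, had no whole count in any of the 7 libraries, and was at 110.0, 113 and 111 CPM in CAST/EiJ, against 14.0, 13.4, 12.2 and 14.7 CPM in C57BL/6J (log2 difference 3.03, SE 0.08, adjusted p 4.31e-29).

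Libraries that share no sample with these 7 showed most of the same strain differences. Among females on 10% fat, 6537 genes were called in the same direction as in males and 102 in the opposite one, which is 74.9% of the genes called in males and 71.3% of the 9172 (48.8%) called in females, 4521 higher (24.1%) and 4651 lower (24.8%). At least 2-fold differences were called in the same direction in both sexes for 2242 genes, 70.3% of those in males and 70.2% of the 3195 (17%) in females. Among males on 44% fat, 7240 were called in the same direction and 3 in the opposite one, 83% of those called on 10% fat and 74.2% of the 9752 (51.9%) called on 44% fat, 4918 higher (26.2%) and 4834 lower (25.7%). Spink1, for example, averaged 0.0401 ± 0.0417 CPM in CAST/EiJ females and 273 ± 9.43 CPM in C57BL/6J females (SD, n = 4 each).

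The test of the difference itself between the sexes called 1198 genes (6.38%), 674 with a higher strain difference in males (3.59%) and 524 with a lower one (2.79%). The widest was Akr1c21, a hydroxysteroid dehydrogenase. In males it was at 718, 614 and 676 CPM in CAST/EiJ and 1041, 1217, 1055 and 1012 CPM in C57BL/6J, and in females at 0.300, 0.415, 0.575 and 0.207 CPM in CAST/EiJ and 559, 572, 551 and 567 CPM in C57BL/6J, a difference of differences of 9.83 (SE 0.26, adjusted p 1.49e-26). Of these 4 groups, CAST/EiJ females were the one with the gene near 0. Pzp went the other way (males minus females -8.31, SE 0.26, adjusted p 2.19e-24), since C57BL/6J females had 0.286, 0.328, 0.359 and 0.499 CPM and CAST/EiJ females 957, 963, 979.9 and 728 CPM. Igf2, a growth factor gene, was below 3 CPM in all males of both strains, and was at 2.18 ± 0.279 and 203 ± 12.2 CPM in CAST/EiJ and C57BL/6J females (males minus females 6.16, SE 0.60, adjusted p 3.46e-09).

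Several of the genes that led the list in males differed much less in females. Aldh1a1 averaged 74.9 ± 12.3 and 8.68 ± 1.05 CPM in CAST/EiJ and C57BL/6J females, and the strain difference was 3.90 higher in males (SE 0.19, adjusted p 6.70e-18). For Aldh1a7 the males exceeded the females by 4.21 (SE 0.32, adjusted p 7.11e-12), for Spock2 by 4.19 (SE 0.21, adjusted p 5.38e-19) and for F2 by 3.99 (SE 0.64, adjusted p 2.56e-05). Slc6a15 was well expressed in females of both strains, at 24.5, 37.7, 35.9 and 18.1 CPM in CAST/EiJ and 34.8, 67.8, 35.4 and 34.2 CPM in C57BL/6J, so that the near-absence in CAST/EiJ was seen in males (males minus females -5.58, SE 0.53, adjusted p 2.55e-09). Slc22a26, an organic ion transporter gene, was higher in CAST/EiJ males (2.63) and lower in CAST/EiJ females (-2.21), a difference of 4.85 (SE 0.47, adjusted p 4.20e-09). Bcat1, which breaks down branched-chain amino acids, did the reverse, at -2.23 in males and 2.95 in females (males minus females -5.18, SE 0.39, adjusted p 7.06e-12).

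Slc7a13, the aspartate and cystine transporter gene of the late proximal tubule in males, was at 1042 ± 40.4 and 1035 ± 55.0 CPM in CAST/EiJ and C57BL/6J males and not called there. In females it was at 37.2, 57.6, 33.7 and 22.8 CPM in CAST/EiJ and 0.614, 0.511, 1.31 and 0.959 CPM in C57BL/6J (males minus females -5.54, SE 0.29, adjusted p 8.49e-17). Hdc, the enzyme that makes histamine, was below 5 CPM in males and at 583, 194, 390.0 and 144 CPM in CAST/EiJ and 135, 47.9, 74.7 and 94.1 CPM in C57BL/6J females (males minus females -5.41, SE 0.92, adjusted p 9.71e-05, but adjusted p 0.167 by limma-voom). Gbp8, a guanylate-binding protein gene, rose in CAST/EiJ males, at 10.0, 14.4 and 24 CPM, against 1.22, 1.34, 0.71 and 1.28 CPM in C57BL/6J males (males minus females 4.59, SE 0.64, adjusted p 2.79e-06). Of the listed genes above, Ugt3a2 fell further in males (males minus females -1.87, SE 0.11, adjusted p 4.96e-17), as did Agt (males minus females -2.0, SE 0.32, adjusted p 3.13e-05) and Srd5a2 (males minus females -4.14, SE 0.70, adjusted p 8.30e-05), while no sex difference was called for Cyp51 or Klk1, at 0.08 (SE 0.14, adjusted p 0.847) and -0.01 (SE 0.14, adjusted p 0.998).

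**Figure D5:**
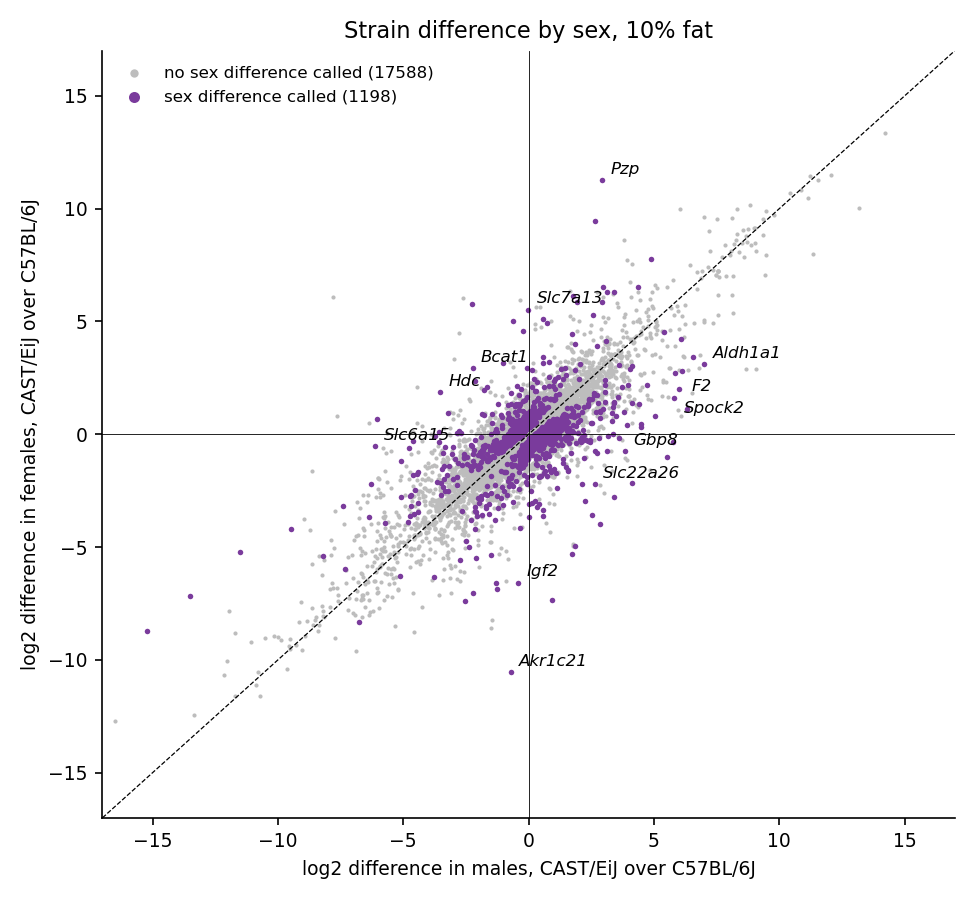
Log2 difference of CAST/EiJ over C57BL/6J on 10% fat in males (horizontal axis) and in females (vertical axis), libraries of the 2 sexes being separate. Coloured points are the 1198 genes whose strain difference was called as different between the sexes, grey points are the other tested genes, labels mark genes named in the text, and the dashed line marks equal differences.

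Few genes were called in the test of whether the strain difference depended on diet, and a gene not called may still have depended on it. Between 10% and 44% fat in males, 11 genes (0.0586%) were called by edgeR, 5 with a higher difference on 10% fat (0.0266%) and 6 with a lower one (0.0319%), and 1768 had an unadjusted p under 0.05. Gsto1, a glutathione transferase of the omega class, was at 49.8, 41.8 and 44.4 CPM in CAST/EiJ males on 10% fat and 19.7, 24.3, 19 and 18.6 CPM in C57BL/6J males on 10% fat, and at 78.2, 87.4, 72.5 and 64.9 CPM in CAST/EiJ males on 44% fat and 17.5, 18.4, 15.7 and 18.3 CPM in C57BL/6J males on 44% fat (10% minus 44% -0.95, SE 0.14, adjusted p 0.00102). Its strain difference was thus smaller on 10% fat. Slc22a8, the organic anion transporter OAT3, averaged 228 ± 17.1 and 295 ± 24.8 CPM in CAST/EiJ and C57BL/6J on 10% fat and 438 ± 97.0 and 295 ± 54.5 CPM on 44% fat (10% minus 44% -0.93, SE 0.16, adjusted p 0.0138). Mttp, which loads lipid onto apolipoprotein B, differed by -1.33 on 10% fat and -0.39 on 44% fat (10% minus 44% -0.94, SE 0.19, adjusted p 0.0367), and Ces2e by -0.75 and 0.19 (10% minus 44% -0.95, SE 0.17, adjusted p 0.0138). Olfm3, an olfactomedin gene, differed by -2.22 on 10% fat and -3.23 on 44% fat (10% minus 44% 1.01, SE 0.20, adjusted p 0.0271). Pde5a, a cGMP phosphodiesterase gene, Mbtd1 and the proteoglycan gene Sdc2 likewise had strain differences that were higher on 10% fat by 0.77, 0.58 and 0.57, and Laptm4b had one lower by 0.51 (SE 0.16, 0.12, 0.12 and 0.10). Of the 11 genes called, 1 was called whichever of the 7 libraries was left out, which was Gsto1, and Slc22a8 was called in 5 of those 7 fits and Ces2e in 4. Without 1 library, 0 to 2 genes were called higher and 1 to 5 lower. With DESeq2, 22 genes were called higher and 12 lower.

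NZO/HlLtJ males on 10% fat, an obese and diabetes-prone strain, give a second view of the same C57BL/6J libraries, so the 2 comparisons share their controls and are set side by side only. Spink1 was at 0 counts in CAST/EiJ, 353 ± 20.3 CPM in NZO/HlLtJ and 255 ± 26.5 CPM in C57BL/6J. Cyp2a4 was at 0.269 ± 0.114, 387 ± 37.3 and 303 ± 35.3 CPM in CAST/EiJ, NZO/HlLtJ and C57BL/6J, and mt-Co2 at 15 ± 1.68, 5263 ± 1050.0 and 5719 ± 27.2 CPM. The level in NZO/HlLtJ lay near that in C57BL/6J for these 3 genes. Atp4a was near 0 in both CAST/EiJ and NZO/HlLtJ, at 0.192 ± 0.0365 and 0.863 ± 0.331 CPM, against 30.6 ± 0.565 CPM in C57BL/6J, and Agt was low in both, at 1.58 ± 0.859 and 0.636 ± 0.166 CPM, against 42.2 ± 5.64 CPM. Aldh1a1 was high in both, at 489.7 ± 95 CPM in CAST/EiJ and 208 ± 18.3 CPM in NZO/HlLtJ, against 3.80 ± 0.366 CPM in C57BL/6J. Pgk1-rs7 was also high in both, at 267 ± 10.3 and 265 ± 43.7 CPM, against 2.5 ± 0.723 CPM.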

How the data were processed

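The series measured polyadenylated RNA of mouse kidney in 47 libraries of 12 groups of strain, sex and diet. The values deposited by the authors are expected counts, which are estimates and were not whole for 20.6% of values (further than 0.001 from a whole number). They also deposited a variance-stabilized matrix, on a log2 scale judging by its file name and values. The genome build, GRCm38, and DESeq2 are named per the submitters' processing notes. The aligner and the counting tool are not given in the sources used here, nor is the use of strand, so genes that overlap or are antisense to each other are uncertain.

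Expected counts were rounded to whole numbers and tested with edgeR 4.0.16 (R 4.3.3): TMM scaling, filterByExpr over the 12 groups (18786 genes tested, 3688 set aside of 22474), and a robust quasi-likelihood fit of group and ID run with 33 residual degrees of freedom. A gene was called at a Benjamini-Hochberg adjusted p under 0.05 over all genes tested. The sex and diet tests are contrasts of the same fit. The script was tested on simulated data. Library totals of 34.4 M to 48.1 M expected counts set the precision, with a median standard error (log2) of 0.0801 for the most abundant genes and 0.592 for the faintest. CPM used the TMM-scaled totals, and the bounds and intervals cover counting error only.

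Shared sequence was measured as the share of 31-base words that a gene's GENCODE M21 transcripts have in common with other genes on either strand. Genes that overlap each other were not left out of this share, so a high share does not by itself mark a near copy. Families link genes that do not overlap and share at least 40% of the words of either, and their counts were summed and fitted in the same model, a step chosen after the data were seen. Sequences come from GENCODE M21 on GRCm38. CAST/EiJ sequence variants were not analysed here.

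The comparison, its gene lists and the tests were chosen with earlier results of these data known. Genes were named by a rule: called, with groups not overlapping and no predicted or pseudogene name, the 10 highest and 10 lowest log2 differences at an average log2 CPM of 1 or more and a mean of 10 counts or more per library in each group, the 6 most abundant each way with a group under 10 counts, the 6 highest and lowest at 8 or more, up to 4 members of each list by adjusted p, the 5 highest and lowest sex and diet differences, and up to 6 genes by share of counts that are not whole. Near copies of a named gene, and genes said to be named after their values were seen, lie outside it, and some genes the rule named are not reported here. List medians were the same with groups at 0 set to their bound. The alternatives were DESeq2 size factors, no filter, DESeq2 1.42.0, limma-voom (limma 3.58.1), limma on the deposited log2 values, no run term, fewer libraries, whole counts alone, and each of the 7 libraries left out.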

Additional observations from a re-analysis of the deposited data

Results flagged for a closer look

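Of 106 sets of 4 libraries of named genes, 12 (11.3%) held a library far from the other 3 by Dixon's test, where chance gives about 1 in 20, and in 7 of them it was C57BL/6J male replicate 2. Without that library 4187 genes were higher and 3977 lower in CAST/EiJ males. It was high for Cfi (7.35 CPM, the others 4.46 to 4.95), Erdr1 (42.3, the others 28.5 to 30.1), Gm13341 (0.596, the others 0.178 to 0.226), Pdilt (2.39, the others 1.5 to 1.59), Pigr (223, the others 171 to 172), Slc7a12 (11.2, the others 2.99 to 4.17) and Stra6l (30.0, the others 20.1 to 21.6). C57BL/6J male replicate 1 was high for Ces2b (20.7 CPM, the others 12.3 to 12.9) and replicate 4 for Iigp1 (38.4, the others 24.3 to 26.3). The check needed 4 libraries, so CAST/EiJ males, with 3, were not checked. C57BL/6J female replicate 2 was high for Slc6a15 (67.8 CPM, the others 34.2 to 35.4). CAST/EiJ female replicate 1 was low for Aldh1a1 (56.7 CPM, the others 78.6 to 82.9) and replicate 4 for Pzp (728, the others 957 to 979.9). In the strain comparison of males none of these values lay within the range of the other strain. For Erdr1, Iigp1, Pdilt, Pigr and Stra6l this was fixed in advance, since the naming rule required groups that do not overlap.

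The strain difference differed between the sexes for 22 of the genes whose difference between the sexes is given. As males minus females on the log2 scale, edgeR's contrast gave positive values for Akr1c21 (9.83), Igf2 (6.16), Slc22a26 (4.85), Gbp8 (4.59), Aldh1a7 (4.21), Spock2 (4.19), F2 (3.99), Aldh1a1 (3.90), Apob (3.82), Slc7a12 (3.33), Scd1 (2.34) and Ces1e (2.09). It gave negative values for Pzp (-8.31), Slc6a15 (-5.58), Slc7a13 (-5.54), Hdc (-5.41), Bcat1 (-5.18), Srd5a2 (-4.14), Cyp7b1 (-3.73), Acsm3 (-2.29), Agt (-2.0) and Ugt3a2 (-1.87).

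With all libraries, the strain difference was called as different between the diets for the 9 genes whose difference between the diets is given. With 1 of the 7 libraries left out in turn, Laptm4b, Mbtd1, Mttp, Pde5a and Sdc2 were each still called in 1 of 7 fits and Olfm3 in 3. As 10% minus 44% fat, the values were 1.01 for Olfm3, 0.77 for Pde5a, 0.58 for Mbtd1, 0.57 for Sdc2, -0.51 for Laptm4b, -0.93 for Slc22a8, -0.94 for Mttp, -0.95 for Gsto1 and -0.95 for Ces2e.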

How the results depend on the processing

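No paired analysis was possible because the labels give no replicate numbers. The 4474 genes higher became 2954 among the 13252 genes with whole counts in all 7 libraries, by construction a smaller set, and the 674 genes with a higher strain difference in males became 444. The 1385 genes higher at 2-fold or more became 923 there and 502 by limma on the deposited log2 values, where the 1802 lower became 565, and variance stabilization shrinks differences of low counts by construction. Across the other alternatives these counts stayed within 1.5 times. The diet test, with 5 genes higher and 6 lower, gave 2 higher without a filter, 11 by limma-voom, 8 on the deposited log2 values, 22 higher and 12 lower by DESeq2, 0 and 2 with C57BL/6J and CAST/EiJ libraries alone, and 1 and 1 with the groups compared alone. The cause was not tested.

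With each of the 7 libraries left out in turn, 3869 to 4228 genes were higher and 3789 to 4041 lower, 1252 to 1357 and 1674 to 1770 at 2-fold or more. Between the sexes 475 to 620 were higher and 394 to 513 lower, and between the diets 0 to 2 and 1 to 5. The share of calls that were higher ran from 46.9% to 51.9% over all settings, and the median log2 difference from -0.0260 to 0.0125.

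Of 3613 log2 differences of 229 results recomputed, 3493 kept direction and call, 92 lost the call, 2 gained it (Scd1) and 26 changed sign. The sign changed near 0 for Cyp2a5 (-0.0599 by limma-voom, -0.26 to 0.361 with 1 library left out), for Cyp51 between the sexes (-0.0278 to 0.167 with 1 left out), for Klk1 between the sexes (0.0102 by limma-voom, 0.0076 without the run term, -0.0596 to 0.0378 with 1 left out) and for Slc7a13 in males (0.0089 without the run term, -0.126 to 0.0528 with 1 left out). None of these 4 was called in the first place. As sums over families of near copies the sign changed for mt-Co2 (0.0523), Slc22a30 (0.588), C4a (-0.879), Cyp4a32 (-0.656), Cyp2a5 (-3.03), Pgk1 (0.287), Apoo-ps (-0.0379), Gm10175 (0.0404), Gsta1 (-3.09), Hsd3b4 (0.0804), Rpl27-ps3 (0.0905), Rpl9-ps6 (0.0859), Rps12-ps3 (0.364) and Tpm3-rs7 (-0.176), and the call was lost for Apoo, Atp5g2, Gm13341, Rpl27, Rpl9, Slc22a29 and mt-Atp6. Of 1152 counts of list members, 1085 stayed within 1.5 times. Among members with whole counts, 10 of 11 MHC genes and 16 of 20 interferon genes were lower. Genes below 1 CPM had the widest errors, and a level of 0 in a strain with many variants cannot be told apart from reads that were not assigned.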

Other observations

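The strain difference of further metabolic genes differed between the sexes, and they are named here after their values were seen. Cyp7b1, an oxysterol hydroxylase, differed by -1.78 in males and 1.96 in females, a difference of -3.73 (SE 0.44, adjusted p 1.82e-07). Scd1, the stearoyl-CoA desaturase gene, differed by 0.50 in males, which was not called with all libraries but was without C57BL/6J replicate 1 or CAST/EiJ replicate 2 (0.637 and 0.725, adjusted p 0.0312 and 0.0134), and -1.84 in females (males minus females 2.34, SE 0.31, adjusted p 1.57e-06). Slc7a12, an amino acid transporter gene, was at 55.3, 53.6 and 52.8 CPM in CAST/EiJ males and 2.99, 11.2, 4.17 and 3.44 CPM in C57BL/6J males, and at 418, 590.3, 378 and 462 CPM in CAST/EiJ females and 413, 464, 507 and 485 CPM in C57BL/6J females (males minus females 3.33, SE 0.62, adjusted p 3.43e-04). The gap was thus present in males and nearly absent in females. Apob, the protein of low-density lipoprotein, differed by -1.51 in males and -5.33 in females (males minus females 3.82, SE 0.28, adjusted p 1.94e-12), and the carboxylesterase gene Ces1e by -2.13 and -4.21 (males minus females 2.09, SE 0.20, adjusted p 1.58e-09). Acsm3, a medium-chain acyl-CoA synthetase gene, differed by -0.30 in males and 1.99 in females (males minus females -2.29, SE 0.43, adjusted p 4.10e-04).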
